A study of Homo sapiens with 6 samples.

Results

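Wnt ligands, their receptors and inhibitors, and the genes of beta-catenin feedback were followed after selamectin in MDA-MB-231, a human breast cancer line that lacks hormone receptors and HER2 amplification. Members were the array's transcript clusters, a cluster being the group of probes assigned to 1 locus, that carry exactly 1 gene symbol and belong to the WNT, FZD, DKK or SFRP families or to a fixed set of pathway genes. Where a gene had more than 1 such cluster, the one with the highest mean stood for it, which applied to DKK3 alone. This gave 59 genes of 18417 tested. The rule itself uses no measured difference, but the set was chosen with earlier results of these data known. TCF7, also in the set, had no cluster with a single symbol.

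The study compared 3 arrays of cells given 1 µM selamectin for 24 h with 3 control arrays, which the titles call untreated while the treatment protocol speaks of vehicle. Selamectin is an antiparasitic macrocyclic lactone of the avermectin family, and the series title frames avermectins as inhibitors of the SIN3 corepressor. All arrays come from the same line, grown in serum-containing medium, and the replicates are described only as independent. If the cultures were not separate, p-values measure only the spread between these arrays.

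In canonical Wnt signalling, a secreted Wnt protein binds a Frizzled receptor together with the co-receptor LRP5 or LRP6. Dishevelled proteins then restrain the destruction complex of APC, Axin and the kinase GSK3, so that beta-catenin accumulates and acts with TCF and LEF factors on target genes, among them feedback inhibitors such as AXIN2 and NKD1. Other Wnts, WNT5A above all, act largely through routes that do not need beta-catenin, and are studied for their part in the migration of mesenchymal breast cancer cells.

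Array values were log2 expression values with array medians from 7.47 to 7.51. Untreated means were set against their median over all genes, 8.24. Of 8 markers of the line, 7 were measured and 6 lay above that median, led by KRT8 at 13.71 ± 0.03 (SD, n = 3), with SPARC at 7.64 ± 0.08 the exception. Of 7 hormone receptor and luminal markers, 5 lay below it, among them ESR1 at 6.97 ± 0.20 and PGR at 5.60 ± 0.02, while FOXA1 had 9.76 ± 0.06 and ERBB2 9.17 ± 0.18. Of markers of other cell types, 3 of 12 fibroblast genes (FBN1, COL1A1 and ACTA2), 1 of 9 measured leukocyte genes (CD68) and 1 of 8 endothelial genes (CDH5) lay above it, and their lowest genes were POSTN at 4.95 ± 0.07, PTPRC at 4.84 ± 0.07 and EMCN at 4.96 ± 0.03. The mean value of the fibroblast list lay between 6.87 and 6.97 on the untreated arrays and 6.91 and 7.005 on the selamectin arrays, that of the leukocyte list between 6.497 and 6.64 and 6.55 and 6.58, and that of the endothelial list between 6.57 and 6.67 and 6.55 and 6.68. Of all these markers CD44 and PDGFRB rose and SPARC fell in the test described below; their part in the results was not tested. No detection calls were used, so a low value cannot be told from background, and because probes differ in brightness, values of different genes do not rank their abundance. In bulk RNA, fewer cells with a transcript and less transcript per cell cannot be told apart.

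The letters that TCF and LEF factors are known to bind were looked for in the 250 bases before the start site, in the promoter sequences of RefSeq (build GRCh38.p14). The motif was CTTTG followed by AA, AT, TA or TT, on either strand. Of the 41 members with a window in that table, 2 held a match, DKK1 and TCF7L2, or 4.88%, beside 12.7% of the tested genes that had a window. TCF7L2 held it in 1 of its windows and not in its others. The remaining members, AXIN2 and NKD1 among them, had no window, so the share says nothing about them. Among 7 other pathway genes described below that passed the test, MMP7 and DACT2 held one, or 28.6%. The share was 17.9% of all 84 other pathway genes with a window. The windows of DKK1, MMP7 and DACT2 are shown. They belong to a secreted inhibitor, a reported target gene and a cytoplasmic inhibitor, and carry the same kind of letters. MMP7 rose, DACT2 fell and DKK1 did not pass the test, and a link between letters and change was not tested. Capitals mark the matches.
DKK1, chr10:52314031-52314280, plus strand: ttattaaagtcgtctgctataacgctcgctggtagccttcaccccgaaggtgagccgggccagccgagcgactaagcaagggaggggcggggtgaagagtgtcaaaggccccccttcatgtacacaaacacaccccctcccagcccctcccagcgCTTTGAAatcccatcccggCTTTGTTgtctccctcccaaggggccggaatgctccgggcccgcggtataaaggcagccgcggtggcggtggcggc
MMP7, chr11:102530748-102530997, minus strand: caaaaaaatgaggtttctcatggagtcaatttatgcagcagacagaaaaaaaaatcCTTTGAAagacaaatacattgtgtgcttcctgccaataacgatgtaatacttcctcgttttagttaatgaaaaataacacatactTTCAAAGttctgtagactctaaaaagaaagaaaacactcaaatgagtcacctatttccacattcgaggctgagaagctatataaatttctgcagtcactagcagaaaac
DACT2, chr6:168319778-168320027, minus strand: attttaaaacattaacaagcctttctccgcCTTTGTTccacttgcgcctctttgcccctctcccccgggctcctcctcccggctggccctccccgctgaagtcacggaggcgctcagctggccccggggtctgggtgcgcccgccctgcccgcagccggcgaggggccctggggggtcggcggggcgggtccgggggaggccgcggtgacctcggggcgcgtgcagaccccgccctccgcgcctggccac

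The DKK1 window holds CTTTGAA starting 95 bases and CTTTGTT starting 76 bases before the start site. In MMP7 the first match, CTTTGAA, starts 194 bases before the start site, and its reverse complement starts 109 bases before it. DACT2 has CTTTGTT starting 220 bases before the start site. A match of letters is a description and shows no binding.

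No member of the pathway rose or fell past the threshold. Of 59 members, 0 had an adjusted p under 0.05 in limma, a test that pools the spread across genes, with Benjamini-Hochberg adjustment over all 18417 genes; in the same fit 4.69% of all genes passed, 2.41% as higher and 2.28% as lower. At an unadjusted p under 0.05 there were 8 members, 2 higher and 6 lower, which is 13.6% of members beside 19.9% of all genes (11.7% higher and 8.21% lower). The log2 changes of the members, selamectin minus untreated, lay between -0.39 and 0.25, with a median of 0.02 beside 0.04 for all genes. The median size of a member's change, 0.088, was about that of its standard error, whose median was 0.096. For 57 of 59 members the 95% interval of the change, not adjusted for the number of genes, lay within 1.5-fold in both directions, as it did for 91.6% of all genes; LRP5 and FZD4 were the exceptions. Giving each array a weight by its spread, a setting in which untreated array 3 carried a weight of 5.11 and the others between 0.45 and 1.22, let 10 members pass, or 16.9%, beside 17.8% of all genes.

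**Figure D1:**
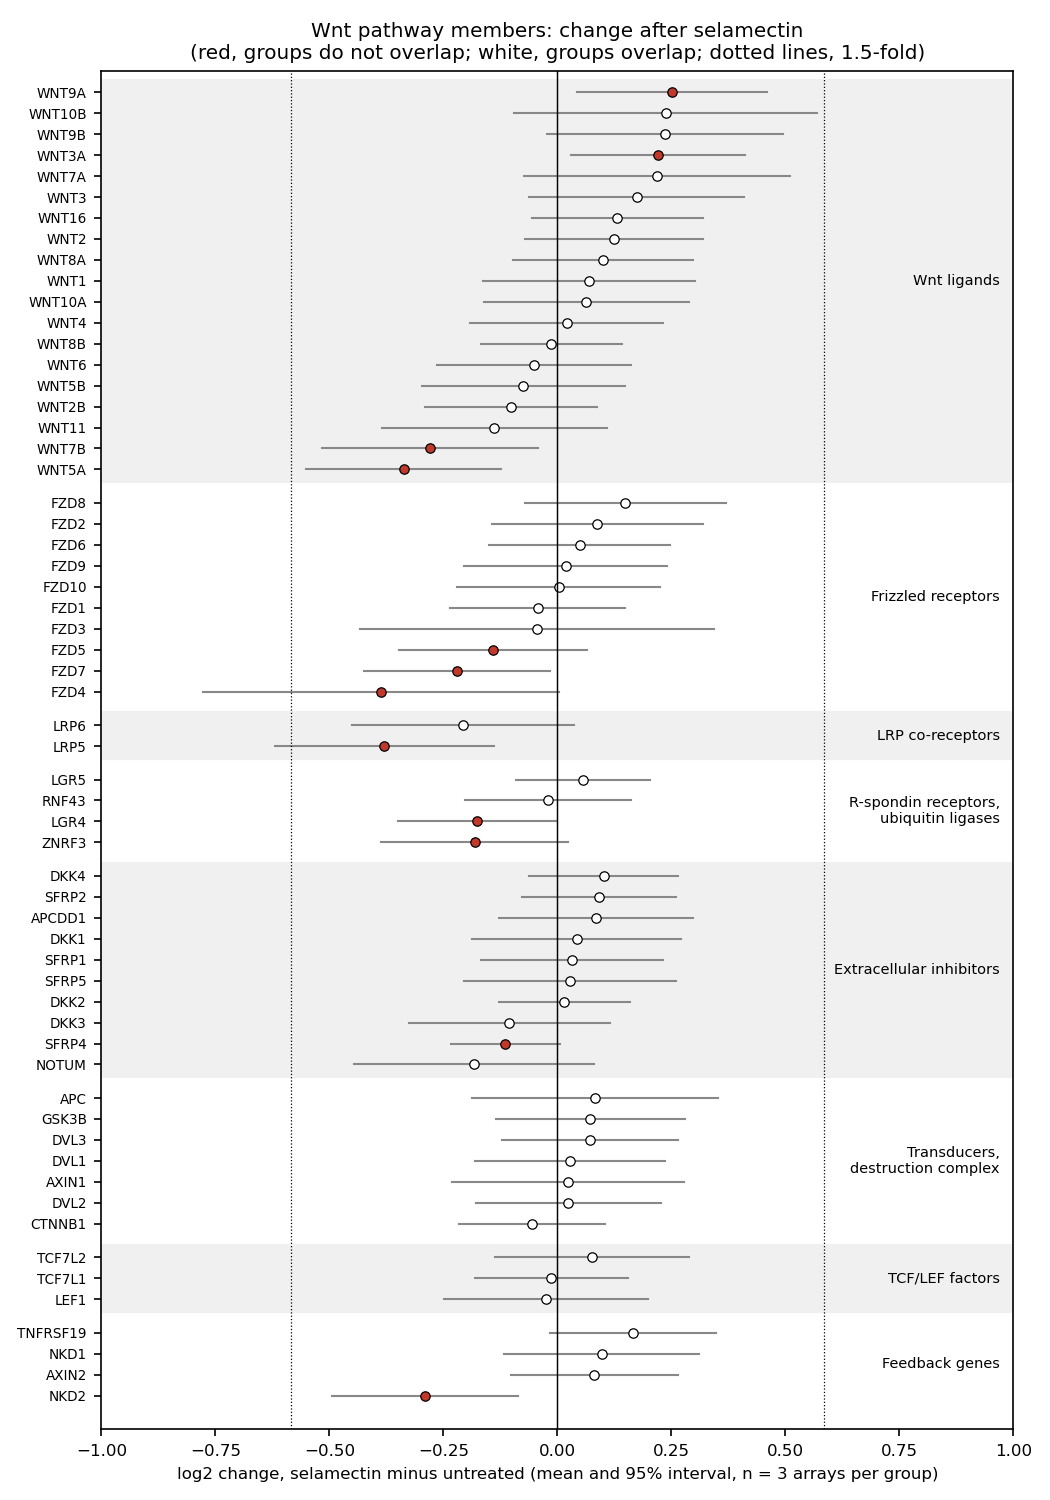
Log2 change of each of the 59 members, selamectin minus untreated (horizontal axis), by role; points are mean differences, bars 95% intervals, n = 3 arrays per group, and dotted lines mark 1.5-fold. Every point lies between -0.39 and 0.25, and only the intervals of LRP5 and FZD4 cross a dotted line.

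Among the 19 Wnt ligands, WNT5A and WNT7B had lower values after selamectin and WNT9A and WNT3A higher ones on every array, all without passing the test. WNT5A, the ligand best known for beta-catenin-independent signalling, read 9.54, 9.39 and 9.48 on the untreated arrays and 9.20, 8.9997 and 9.20 on the selamectin arrays. The groups do not overlap, and selamectin array 2 is the lowest. Its log2 change was -0.34 (SE 0.10, 95% interval -0.55 to -0.12, limma adjusted p = 0.075), a 1.26-fold lower level, and this was the smallest adjusted p of any member. WNT7B, a ligand that signals through beta-catenin in many epithelia, read 8.18, 8.40 and 8.33 untreated and 7.84, 8.11 and 8.12 with selamectin. The highest treated value lies just under the lowest untreated one, and the log2 change was -0.28 (interval -0.52 to -0.04, adjusted p = 0.18).

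WNT9A, a ligand of joint and limb development, had untreated values of 8.24, 8.47 and 8.41 and selamectin values of 8.60, 8.66 and 8.61. Its 3 treated arrays lie close together above the untreated ones, with a log2 change of 0.25 (interval 0.04 to 0.46, limma adjusted p = 0.17). WNT3A, the canonical ligand most used to switch on beta-catenin in culture, gave 7.18, 7.14 and 6.98 against 7.36, 7.30 and 7.31, a change of 0.22 (interval 0.03 to 0.41, adjusted p = 0.18). WNT9B, a ligand of kidney development, stood at 7.45, 7.89 and 7.61 untreated and 7.82, 7.999 and 7.85 with selamectin; the groups overlap through untreated array 2, and the adjusted p was 0.30. The ligand with the highest mean value was WNT10B, which read 10.07, 10.37 and 10.53 untreated and 10.68, 10.77 and 10.24 treated. Its change of 0.24 had an interval from -0.10 to 0.57, and selamectin array 3 lies among the untreated values. Of the 19 ligands, 12 had a positive and 7 a negative change, beside 11596 positive and 6821 negative among all 18417 genes. The median of the ligands was 0.07, beside 0.04 for all genes. The groups did not overlap for 4 ligands, or 21.1%, beside 25.3% of all genes.

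Frizzled receptors, the membrane proteins that bind Wnts, were split evenly, with 5 of 10 positive and 5 negative and a median log2 change of -0.02. All 18417 genes had 11596 positive and 6821 negative changes. FZD7, a receptor often studied in triple-negative breast cancer, read 8.47, 8.32 and 8.53 untreated and 8.25, 8.19 and 8.21 with selamectin. All treated values are below all untreated ones, with a change of -0.22 (interval -0.42 to -0.02, limma adjusted p = 0.22). FZD4, which also serves the ligand norrin in blood vessels, had the most negative change of all members, -0.39, but this rests on 1 array. Its values were 8.70, 8.52 and 8.63 untreated and 8.48, 8.49 and 7.72 with selamectin, so that arrays 1 and 2 lie next to the untreated ones. The interval ran from -0.78 to 0.0038 (adjusted p = 0.26), and without selamectin array 3 the change was -0.13. FZD2, the receptor with the highest mean, had group means of 9.51 ± 0.16 and 9.60 ± 0.09 (SD, n = 3). FZD3 varied most among untreated arrays, from 7.29 on array 2 to 8.003 on array 1, and its groups overlap. FZD5 was the third receptor whose groups did not overlap, with a change of -0.14. These 3 of 10 receptors, all lower, are 30% beside 25.3% of all genes (9.3% lower).

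Both co-receptors had lower means with selamectin. LRP5, which with LRP6 carries the Wnt signal to Axin, read 10.96, 11.02 and 11.05 untreated and 10.44, 10.59 and 10.87 with selamectin. The untreated values are tight, while the treated ones spread from far below to just below them. The log2 change was -0.38 (SE 0.11, interval -0.62 to -0.14, limma adjusted p = 0.076), or 1.30-fold lower. Without selamectin array 3 it was -0.50 and passed the test (adjusted p = 0.0088), and no other member passed without that array, where 6.24% of all genes did. LRP6 read 10.60, 10.29 and 10.54 against 10.40, 10.30 and 10.11, overlapping groups with a change of -0.21 (adjusted p = 0.33).

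**Figure D2:**
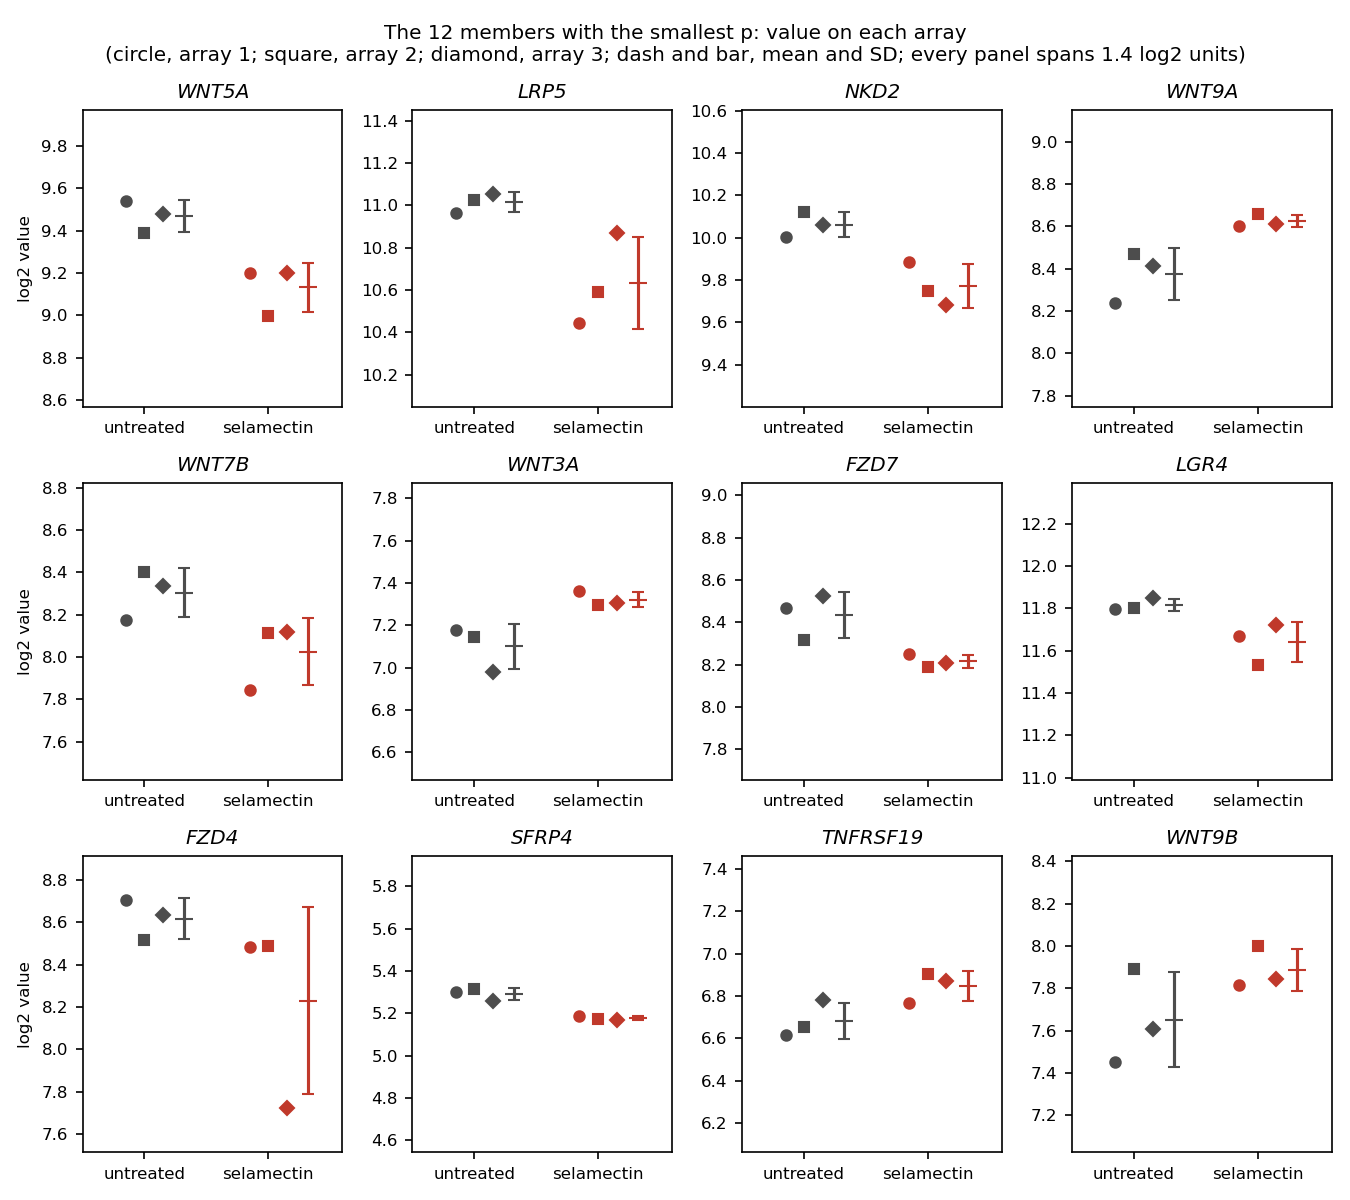
Log2 values (vertical axis) of the 12 members with the smallest p on each untreated and selamectin array, with mean and SD beside the points, n = 3 per group. The groups overlap for TNFRSF19 and WNT9B and for none of the other 10, and selamectin array 3 stands apart for FZD4 at 7.72.

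R-spondin signalling controls how many Frizzled receptors stay at the surface: LGR4 and LGR5 bind R-spondins, which hold back RNF43 and ZNRF3, the ubiquitin ligases that remove Frizzleds. LGR4 read 11.80, 11.80 and 11.85 untreated and 11.67, 11.53 and 11.72 with selamectin. The treated arrays are all lower by a small amount, a change of -0.18 (interval -0.35 to -0.00208, limma adjusted p = 0.24). ZNRF3 read 9.39, 9.21 and 9.23 against 9.07, 9.16 and 9.07, also without overlap, at -0.18 (adjusted p = 0.31). RNF43 stood at 7.13 ± 0.09 and 7.11 ± 0.02 and LGR5, a stem cell marker of gut and skin, at 5.51 ± 0.08 and 5.56 ± 0.06 (SD, n = 3), with overlapping groups for both.

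The 10 extracellular inhibitors had log2 changes between -0.18 and 0.10, and none passed the test in limma. DKK1, which blocks LRP5 and LRP6 and is itself a Wnt target in many cells, had the highest mean of the inhibitors and read 9.29, 9.44 and 9.36 untreated and 9.57, 9.39 and 9.25 with selamectin. Treated arrays lie on both sides of the untreated ones, and the change was 0.04 (interval -0.19 to 0.27, limma adjusted p = 0.85), turning to -0.039 without selamectin array 1; its promoter window is the first of those shown above. SFRP4, a secreted protein that binds Wnts, read 5.30, 5.31 and 5.26 against 5.19, 5.17 and 5.17. These groups do not overlap, but the change was only -0.11 at a low value (adjusted p = 0.27). NOTUM, the enzyme that strips the lipid from Wnts, had means of 8.82 ± 0.20 and 8.64 ± 0.14, and DKK3 had a change of -0.11 in its brighter cluster and 0.05 in its dimmer one, neither past the threshold.

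The 7 genes of the cytoplasmic core had log2 changes between -0.06 and 0.08. Beta-catenin itself, CTNNB1, read 12.91, 12.75 and 12.85 untreated and 12.85, 12.79 and 12.71 with selamectin, a change of -0.06 (interval -0.22 to 0.10, limma adjusted p = 0.71). Its arrays interleave. The other 6, the scaffolds APC and AXIN1, the kinase GSK3B and the Dishevelled genes DVL1, DVL2 and DVL3, had changes from 0.02 to 0.08, each with overlapping groups. The interval of every one of these 7 genes lay within 1.5-fold. These are transcript values, and the pathway is known to act mainly on the stability and place of the beta-catenin protein, which arrays do not measure.

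TCF7L2, the TCF factor with the highest mean, read 9.91, 9.67 and 9.89 untreated and 9.96, 9.89 and 9.85 treated, a change of 0.08 (limma adjusted p = 0.70). LEF1, both a TCF/LEF factor and a beta-catenin target, read 8.74, 8.59 and 8.61 against 8.64, 8.75 and 8.47, a change of -0.02 (interval -0.25 to 0.20) whose sign turned without untreated array 1 or selamectin array 3. TCF7L1 had the smallest spread of the 3, from 6.999 to 7.04 over all 6 arrays.

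Feedback genes are those that beta-catenin switches on and that then damp the pathway. The 4 members placed under that heading here had 3 positive changes and 1 negative one. Whether beta-catenin switches them on in these cells was not tested. All 18417 genes had 11596 positive and 6821 negative changes. LEF1 and DKK1, described above as targets but counted in other roles, had changes of -0.02 and 0.04. ZNRF3, RNF43, NOTUM and APCDD1, which also restrain the pathway and were counted in other roles, had -0.18, -0.02, -0.18 and 0.08. The split therefore describes these 4 members alone. AXIN2, the feedback gene most used as a readout of beta-catenin activity, read 7.49, 7.50 and 7.42 untreated and 7.56, 7.60 and 7.50 with selamectin. The groups overlap slightly through selamectin array 3, and the change was 0.08 (SE 0.08, interval -0.10 to 0.26, limma adjusted p = 0.62). NKD1, which binds Dishevelled, stood at 6.93 ± 0.17 and 7.03 ± 0.03. Its paralog NKD2, also a Dishevelled-binding inhibitor, read 10.01, 10.12 and 10.06 untreated and 9.89, 9.75 and 9.68 with selamectin, with every treated array below the untreated ones. The change was -0.29 (SE 0.09, interval -0.49 to -0.09, adjusted p = 0.10). TNFRSF19, a receptor of the tumour necrosis factor family, read 6.62, 6.65 and 6.78 against 6.77, 6.91 and 6.87, overlapping groups with a change of 0.17 (adjusted p = 0.30). AXIN2, NKD1, LEF1, RNF43, LGR5, NOTUM and the other members outside the naming rule were named here for their role after their values were seen.

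Groups did not overlap for 12 of the 59 members, or 20.3%, beside 25.3% of all genes. Of these, 10 were lower with selamectin (WNT5A, WNT7B, FZD4, FZD5, FZD7, LRP5, LGR4, ZNRF3, SFRP4 and NKD2) and 2 were higher (WNT9A and WNT3A). Among members this is 16.9% lower and 3.39% higher, where all genes had 9.3% lower and 16% higher. That split is a description of these arrays and was not tested. It depended on untreated array 2, which gave the highest untreated value for 35 of 59 members, or 59.3%, beside 41.6% of all genes. Without that array the groups did not overlap for 32 members, 18 higher and 14 lower, which is 54.2% beside 44.6% of all genes. The split of all genes by direction is not given for that setting, so the turn cannot be called particular to the members.

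**Figure D3:**
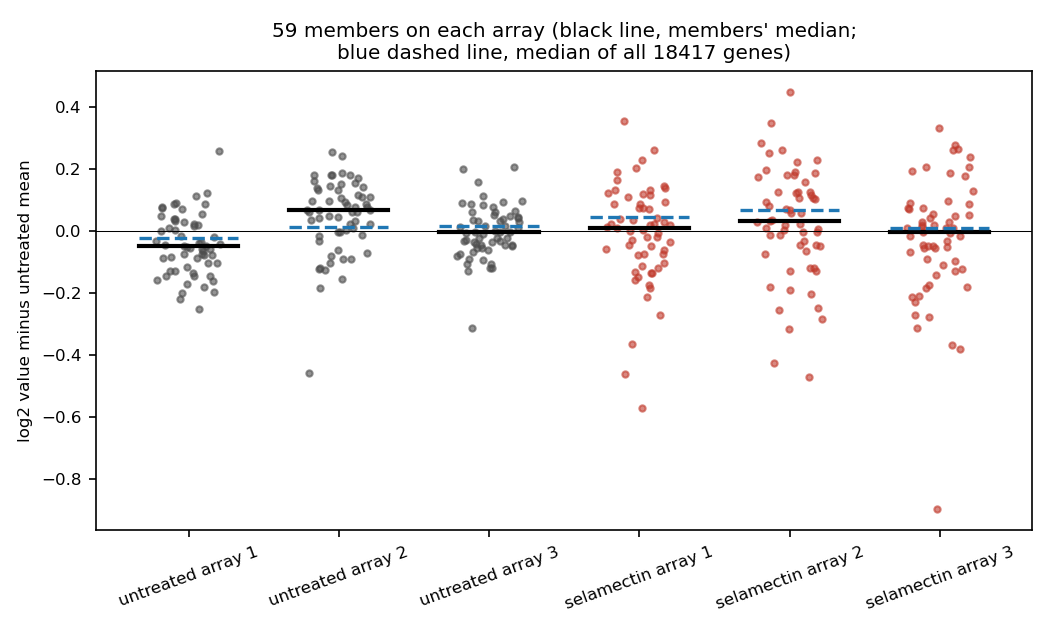
Log2 value minus the untreated mean (vertical axis) of the 59 members on each of the 6 arrays; each point is 1 gene, the black line the members' median and the blue dashed line the median of all 18417 genes. The members' median is highest on untreated array 2, at 0.07, and lies at 0.01, 0.03 and -0.00333 on the selamectin arrays; the lowest point is FZD4 on selamectin array 3.

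The rest of the pathway was read from lists of 121 symbols, of which 111 were measured outside the 59 members. Of these 111, 3 rose (GSK3A, CD44 and MMP7) and 4 fell (DACT2, FRAT1, TLE2 and JAG1), which is 6.31% beside 4.69% of all genes, or 2.41% higher and 2.28% lower. Their median log2 change was 0.03. All 7 lost their call when every cluster of the array was tested together (adjusted p from 0.056 to 0.13 in limma), and each lost it without at least 1 array.

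DACT2, which binds Dishevelled and antagonises Wnt and TGF-beta signalling, was the only call among 19 other inhibitors, or 5.26% beside 4.69% of all genes. Its window is also shown above. DACT2 read 9.52, 9.56 and 9.72 untreated and 8.95, 9.11 and 9.11 with selamectin. A clear gap separates the groups, and it fell by 0.54 on the log2 scale (SE 0.10, interval -0.75 to -0.32, limma adjusted p = 0.013), or 1.45-fold. Without untreated array 3 its adjusted p was 0.077, and it kept its call without any other single array.

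Of 20 destruction complex genes and kinases, 1 rose and 1 fell, or 10% beside 4.69% of all genes. GSK3A, the second GSK3 kinase, read 10.13, 10.53 and 10.46 untreated and 10.85, 10.93 and 10.90 with selamectin. It rose 1.43-fold, by 0.52 log2 units (interval 0.28 to 0.76, limma adjusted p = 0.024), while its paralog GSK3B, a member above, had 0.07 (interval -0.14 to 0.28). The difference between the paralogs was not tested. FRAT1, which binds GSK3 and keeps it from Axin, read 7.38, 7.46 and 7.29 against 6.82, 7.14 and 6.86 and fell 1.35-fold (change -0.43, limma adjusted p = 0.039). Its untreated mean of 7.37 lay below the median over all genes, 8.24. Without untreated array 1, untreated array 3 or selamectin array 2 the adjusted p of GSK3A was 0.082, 0.070 and 0.10, and FRAT1 passed only without selamectin array 2.

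Among 21 nuclear cofactors, TLE2, a Groucho-type corepressor that TCF factors recruit, fell 1.36-fold and none rose. That is 4.76% beside 4.69% of all genes. The values of TLE2 were 9.17, 9.46 and 9.28 untreated and 8.78, 8.98 and 8.83 with selamectin (change -0.44, interval -0.67 to -0.21, limma adjusted p = 0.039). The groups are separate, and the call was lost without any one of the 6 arrays (adjusted p from 0.054 to 0.12).

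None of 9 other receptors passed the test in limma. Of these 9, 3 had an unadjusted p under 0.05, or 33.3% beside 19.9% of all genes, and 5 had groups that did not overlap, all lower with selamectin, or 55.6% beside 25.3% of all genes (9.3% lower). PTK7, a pseudokinase co-receptor of planar polarity, had the smallest p and read 8.31, 8.54 and 8.31 untreated and 8.11, 8.04 and 8.02 with selamectin, a change of -0.33 (adjusted p = 0.079). WLS, which carries Wnts to the cell surface and was the 1 secretion gene measured, stood at 0.03 (limma adjusted p = 0.89), with a negative sign under a second quantile normalization. Of the 5 genes made up of the R-spondins and their receptor LGR6, 0 had an unadjusted p under 0.05 in limma, and RSPO3 stood first at 0.15 (adjusted p = 0.35).

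Of 36 reported Wnt target genes, 2 rose and 1 fell, or 8.33% beside 4.69% of all genes, with a median log2 change of 0.06. CD44, the hyaluronan receptor, read 10.44, 10.47 and 10.54 untreated and 10.99, 10.87 and 10.85 with selamectin and rose 1.34-fold (limma adjusted p = 0.020). MMP7, the protease matrilysin, is a long-studied beta-catenin target with TCF letters in the window shown above. It read 6.91, 7.001 and 7.04 against 7.44, 7.22 and 7.41 and rose 1.29-fold (change 0.37, limma adjusted p = 0.044). Its untreated mean of 6.98 lay below the median over all genes, 8.24. JAG1, a Notch ligand, read 8.88, 8.75 and 8.77 against 8.40, 8.43 and 8.44 and fell 1.30-fold (limma adjusted p = 0.038). The groups of CD44 and JAG1 are set well apart, while in MMP7 selamectin array 2 lies about as near to the untreated values as to the other treated ones. Without any one array the call of MMP7 was lost (adjusted p from 0.059 to 0.15), and so was that of JAG1 except without untreated array 2 or selamectin array 3 and that of CD44 except without the same 2 arrays.

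**Figure D4:**
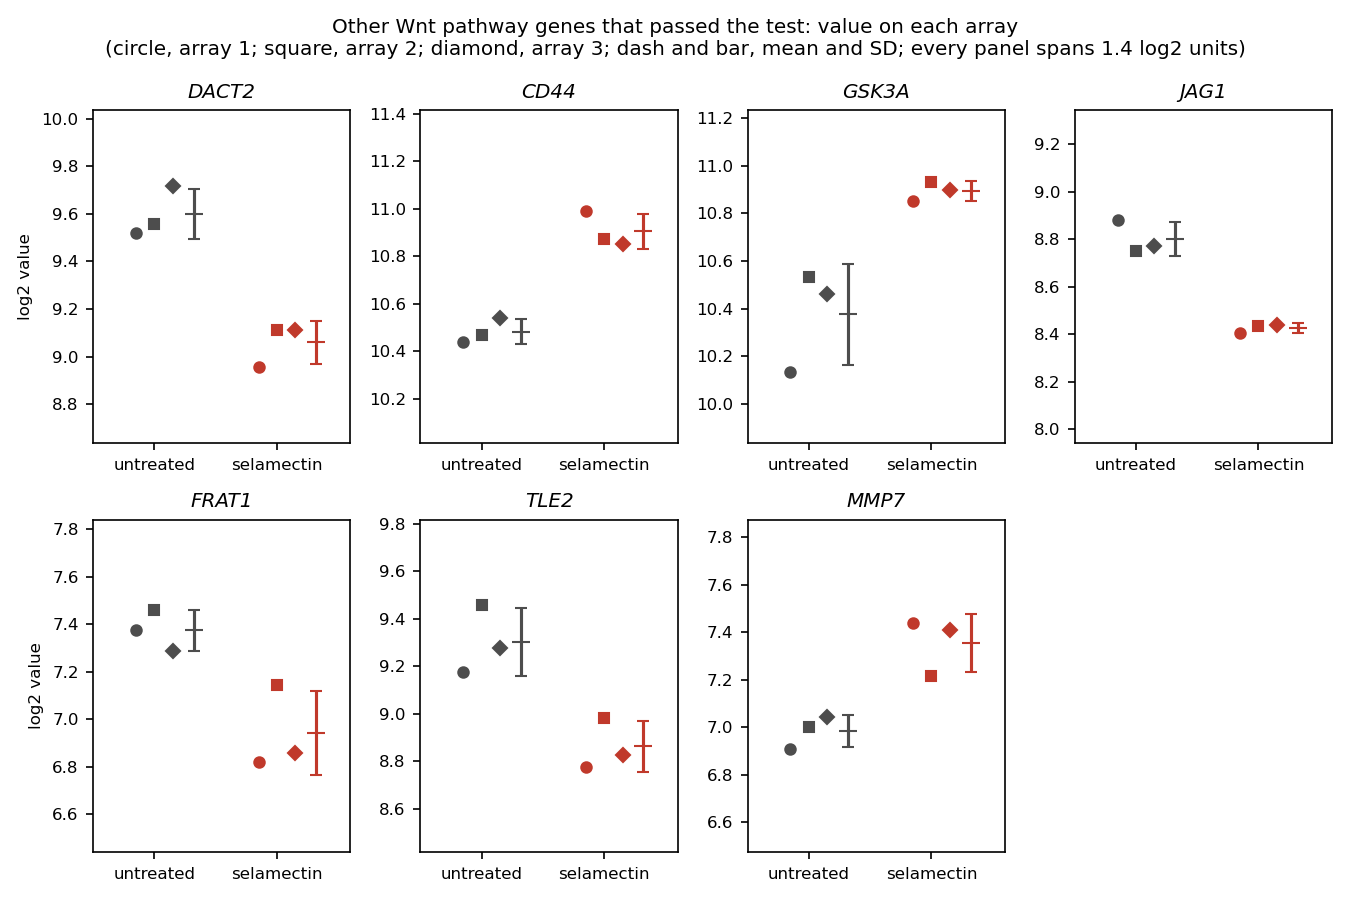
Log2 values (vertical axis) of the 7 other pathway genes with an adjusted p under 0.05 on each untreated and selamectin array, with mean and SD beside the points, n = 3 per group. GSK3A, CD44 and MMP7 are higher and DACT2, JAG1, FRAT1 and TLE2 lower on all 3 selamectin arrays.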

How the data were processed

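RNA of each sample was hybridised to 1 Affymetrix whole-transcript array, 3 per group. Per the submitters' processing notes, Affymetrix Expression Console, RMA and Transcriptome Analysis Console were used, with no version or setting. The authors deposited 1 value per cluster and array, taken here as log2 values as RMA gives them, since no header states the base and values run from 3.73 to 14.9. Arrays normalized together lose a shift shared by all genes, and RMA compresses changes of dim genes. For the array values, the sources used here give no genome build.

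Of 33297 clusters, 19460 had 1 symbol in the platform annotation, 1754 had several and 12083 had no entry; the first gave 18417 genes. The test was that of limma 3.58.1 under R 4.3.3 on the deposited values (lmFit, then eBayes with trend), two-sided and with no block or filter. P-values were adjusted by Benjamini-Hochberg over the 18417 genes, and 0.05 was the threshold. The fit was also run on simulated arrays with changes put into 200 genes. Their noise was independent between arrays, so that run says nothing about effects of single arrays. Members were described in full if they passed, were among the 12 with the smallest p or had the highest mean in their role; of other lists, genes that passed or else the one with the smallest p. Members and lists were chosen with earlier results of these data known. Alternatives changed the scaling (quantiles again, or medians), left out dim genes at 2 limits, ran eBayes robustly or untrended, weighted arrays, averaged a gene's clusters, tested every cluster, blocked on replicate number, dropped single arrays or used a threshold of 0.1. The precision is limited by the number of arrays. No batch is labelled.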

Additional observations from a re-analysis of the deposited data

How the results depend on the processing

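The absence of calls among the 59 members held in limma under the second quantile normalization, median centring, averaged clusters, both other eBayes settings, all clusters and the replicate block, and among the 52 members left by the milder filter on dim genes. Exceptions were leaving out genes under the median of the means, where 1 of the 30 members left fell (WNT5A, adjusted p = 0.0498; 3.33% beside 10.2% of all genes left), a threshold of 0.1, where 2 fell (WNT5A and LRP5; 3.39% beside 8.7% of all genes), and array weights, where 4 rose and 6 fell. Leaving out each array gave 0 to 0 rising and 0 to 1 falling members, and medians from -0.00175 to 0.06. It also gave 15 to 32 members without overlap, or 25.4% to 54.2%, beside 31.2% to 44.6% of all genes. Among the other pathway genes array weights gave 9 rising and 10 falling, all clusters in the fit 0 and 0, the replicate block 2 and 3, and leaving out an array 0 to 8 rising and 0 to 4 falling. Over all genes the counts of rises and falls were 1822 and 1464 with array weights, 104 and 145 with all clusters, 879 and 723 at the threshold of 0.1, 307 and 343 with the replicate block, and 76 to 685 and 100 to 464 without 1 array.

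The replicate numbers do not show that arrays pair: deviations of same-numbered arrays from their group means correlated across genes at -0.01, 0.24 and -0.14, and not every array correlated best with its own number. With the replicate block, 0 members rose and 0 fell, the adjusted p of WNT5A and LRP5 stayed above 0.05, and of the 7 other called genes JAG1 (0.059) and MMP7 (0.060) lost their call. MMP7 also lost it under the second quantile normalization (limma adjusted p = 0.064). Among the named genes, signs turned only where the change was near 0: WLS was -0.012 under the second quantile normalization and -0.022 with array weights, and LEF1 0.028 with array weights. Without 1 array, changes ranged from -0.00175 to 0.15 for FZD2, -0.00141 to 0.12 for TCF7L2, -0.039 to 0.12 for DKK1, -0.090 to 0.050 for LEF1, -0.065 to 0.023 for RNF43 and -0.031 to 0.11 for WLS. The causes were not tested. No detection calls or scanner files were used, so no limit from signal over background could be given.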
